A study of Sus scrofa with 10 samples.

Results

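Small leucine-rich proteoglycans are secreted proteins of the connective tissue matrix. Their curved core of leucine-rich repeats binds collagen fibrils and sets how the fibrils assemble and space, and several of them also bind growth factors such as TGF-beta. Some carry chains of chondroitin or dermatan sulfate (decorin, biglycan) and others keratan sulfate (lumican, fibromodulin), while dermatopontin, a small tyrosine-rich protein without such repeats, binds decorin and collagen. In the testis such matrix lies between and around the seminiferous tubules, where fibroblasts and peritubular cells make it.

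The 8 genes described here were taken by gene name from a table of 27376 rows, and each was found in a single row. They are DCN (decorin), BGN (biglycan) and ASPN (asporin) of class I, LUM (lumican), FMOD (fibromodulin) and PRELP (prolargin) of class II, OGN (osteoglycin, also called mimecan) of class III, and DPT (dermatopontin). The 10 pig libraries came from control testis (2 libraries, with the unexplained code 5D in their titles), from FO grafts (4), made from testicular fibroblasts only, and from GF grafts (4), made from germ cells together with testicular fibroblasts. For grafting, the cells went with Matrigel under the dorsal skin of a mouse that the labels call SKID, where they stayed for 6 months. The labels give no strain, genotype, age or number of animals for any group, and the control libraries carry the same injection text and cell type field as the GF grafts, so that titles alone separate them. The question of the design is what the presence of germ cells does to the rebuilding of testis tissue.

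Total counts were 5844944 and 7013911 in control, 4033509 to 4887878 in FO and 2915534 to 4917325 in GF. Over all genes, 4205 of 13782 differed between GF and FO, 57.5% of them higher in GF, and with total counts alone as scaling 69.1% of 4039 were higher, while the median of all genes moved from -0.02 to 0.13 on the log2 scale. Sertoli cell and Leydig cell markers summed to 4836 to 5402 and 13868 to 16474 CPM in control testis, and no marker of either list was at 0 there. Libraries GF 3 and GF 4 had the lowest totals, and 12 skeletal muscle markers were high in FO 1 (776 CPM summed) and in GF 3 (219 CPM), with 4.07 to 26.6 CPM elsewhere. CPM are counts per 1000000 counts of a library with TMM scaling, and errors are SDs (control n = 2, FO n = 4, GF n = 4). Libraries made with the QuantSeq kit give reads at the 3′ end of a transcript only, so counts of different genes are set side by side without division by length. Whether reads of the mouse host were separated from those of the pig is not given in the sources used here, and in bulk tissue fewer cells of a type and less RNA per cell cannot be told apart. Nothing in the labels says that replicates are separate animals, so p-values measure the spread between these libraries, which may be technical.

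A few loci hold most of the family, in positions of the pig build Sscrofa11.1 from the RefSeq table of that build. DCN (chr5:91678601-91713925) lies 34945 bases before LUM (chr5:91748871-91756381), and KERA and EPYC follow on the same chromosome. OGN (chr3:42116521-42135940) and ASPN (chr3:42165553-42192902) are 29612 bases apart with OMD between them and ECM2 beyond. FMOD (chr9:64062995-64073853) and PRELP (chr9:64190978-64207008) are 117124 bases apart, followed by OPTC. BGN (chrX:124282048-124295450) and DPT (chr4:82287657-82319380) stand apart from the other members. These are the spans of whole genes, exons and introns together.

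In the grafts with germ cells, decorin, fibromodulin and osteoglycin were 3.44-fold to 4.18-fold below their level in the fibroblast-only grafts, while lumican was higher. Of the 8 genes, 7 had enough counts to be tested between GF and FO, and 4 changed (1 higher, 3 lower), where 30.5% of all tested genes were called (17.6% higher and 13.0% lower). Their median log2 fold change was -0.61, against -0.02 over all tested genes. Groups did not overlap for 3 of the 7, against 36.0% of all tested genes. Over the alternative fits and scalings, and with libraries left out, 3 to 5 of the 8 were called. DCN, FMOD and OGN were called under each of the 16 alternatives, including the fit without GF 3 and GF 4 and the fit without FO 1 and GF 3. LUM was called under only 9 of the 16, and its graft groups overlapped.

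**Figure D1:**
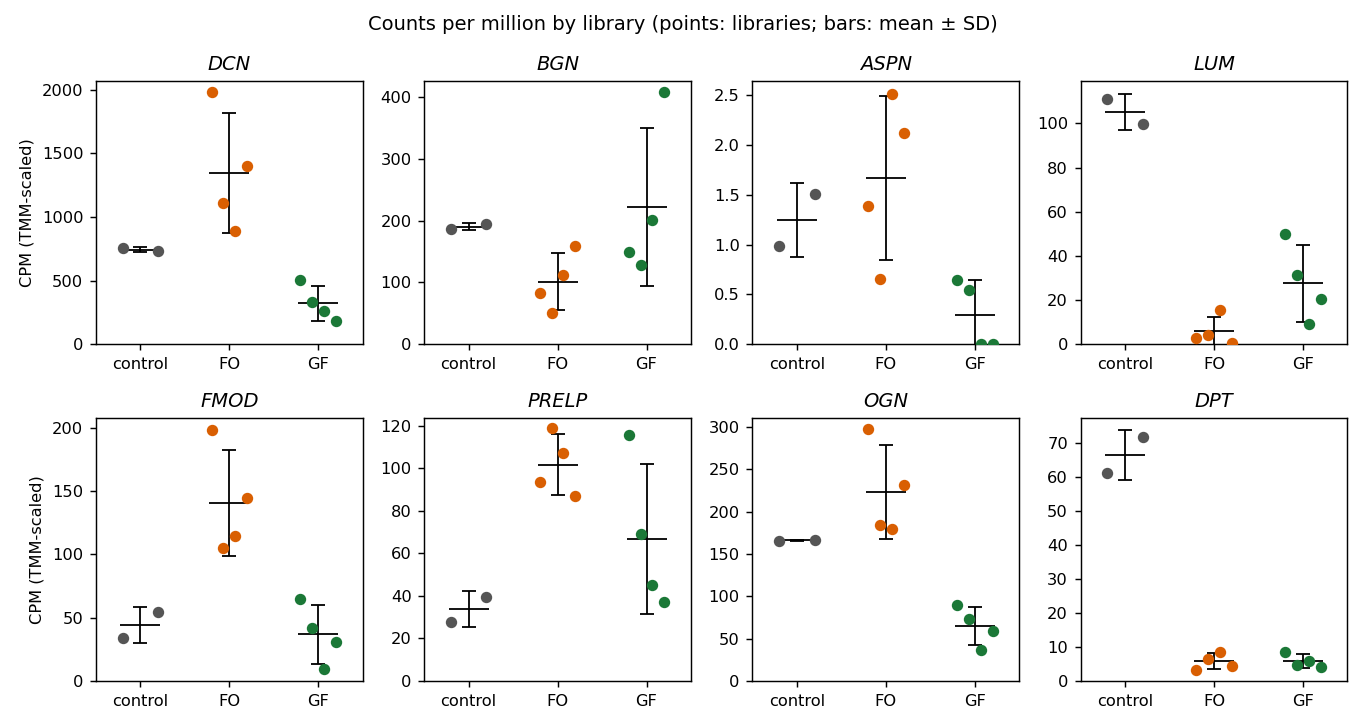
CPM (vertical axes, linear, TMM-scaled) of each gene in control testis, FO and GF libraries; points are libraries, horizontal bars the mean and whiskers the SD. DCN and OGN are lowest in all 4 GF libraries, while DPT is below 9 CPM in each of the 8 graft libraries and above 60 CPM in both control libraries.

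Decorin, the most abundant of the family here, binds type I collagen and can sequester TGF-beta. DCN stood at 757 and 729 CPM in the control libraries, at 1978, 1106, 888 and 1403 CPM in FO 1 to FO 4, and at 507, 334, 261 and 185 CPM in GF 1 to GF 4. The 3 groups did not overlap, and the FO libraries were the highest and the GF libraries the lowest. GF was 4.18-fold below FO (log2 fold change -2.06 ± 0.34 (SE), edgeR adjusted p = 0.00117). GF was also 2.31-fold below control testis (-1.21 ± 0.36, adjusted p = 0.0267), a call that ended without control 1 (adjusted p = 0.139), without control 2 (0.133) and in a fit of these 6 libraries alone (0.064). FO exceeded control by 0.85 ± 0.39, which did not pass (adjusted p = 0.15, 95% interval 0.02 to 1.69). It did pass when FO and control were fitted by themselves (adjusted p = 0.0157) and without GF 3 and GF 4 (0.0184).

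Biglycan, the closest relative of decorin and likewise a carrier of dermatan sulfate, went the other way. BGN stood at 186 and 194 CPM in control, at 82.8, 50.5, 112 and 159.6 CPM in FO, and at 149.8, 128, 202 and 408 CPM in GF. GF 4 was the highest library of all, and FO 4 lay above GF 1 and GF 2, so the graft groups overlapped. GF stood 1.14 ± 0.41 above FO, which missed the threshold narrowly (adjusted p = 0.0552, 95% interval 0.24 to 2.04). It passed under 8 of 16 alternatives, DESeq2 (0.026) and total counts alone (0.0382) among them, and the difference shrank to 0.44 without GF 3 and GF 4 (adjusted p = 0.387). Neither graft group differed from control beyond the threshold (GF 0.22 ± 0.47, adjusted p = 0.759; FO -0.91 ± 0.45, adjusted p = 0.187), though both control libraries lay above all 4 FO libraries.

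Asporin, which lacks the attachment site for a chondroitin or dermatan sulfate chain and binds collagen and TGF-beta, was near the limit of detection. Control libraries held 6 and 10 ASPN counts, FO libraries 5, 3, 12 and 10, and GF libraries 3, 3, 0 and 0. It did not pass the filter on low counts for GF versus FO. The pooled counts, 6 in GF and 30 in FO, gave a ratio of 0.246 with an exact 95% counting interval of 0.0837 to 0.601, which covers counting error only and leaves out the spread between libraries. In the 2 libraries at 0 the level that 3 counts would give was 1.03 and 1.02 CPM. Of the control and FO libraries, control 1 (0.989 CPM) and FO 2 (0.653 CPM) lay below that level. The others stood between 1.39 and 2.52 CPM. How far ASPN lay below them in GF 3 and GF 4 cannot be read from 0 counts at this depth. Against control testis neither GF (-1.8 ± 1.11, adjusted p = 0.253) nor FO (0.41 ± 1.06, adjusted p = 0.832) passed.

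Lumican, a keratan sulfate proteoglycan needed for regular collagen fibrils in cornea and skin, showed the widest range. LUM stood at 111 and 99.6 CPM in control, at 2.79, 4.13, 15.5 and 0.636 CPM in FO, and at 49.9, 31.4, 8.98 and 20.4 CPM in GF. Both control libraries were above every graft library, and the graft groups overlapped, since FO 3 lay above GF 3. FO was 18.0-fold below control (-4.17 ± 0.76, adjusted p = 0.00225), a call made under each of the 18 alternatives, and the value was -5.38 without FO 3. GF was 4.75-fold above FO (2.25 ± 0.75, adjusted p = 0.0395). This call held under 9 of 16 alternatives, with adjusted p from 0.00744 to 0.115: it ended without FO 1, FO 2, FO 4, GF 1 or GF 2 alone (0.115, 0.101, 0.0725, 0.0939 and 0.067), without FO 1 and GF 3 (0.0935) and without GF 3 and GF 4 (0.0605), and without FO 3 the difference was 3.47 (0.00744). GF against control, at -1.91 ± 0.72, did not pass (adjusted p = 0.0657, 95% interval -3.46 to -0.37), and it did without FO 3 (0.0277), FO 4 (0.0398) or GF 1 (0.0318) and with its own 6 libraries in the fit (0.0445).

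Fibromodulin, which shares a collagen site with lumican and carries keratan sulfate, had its highest mean in FO, where lumican had its lowest. FMOD stood at 34.1 and 54.5 CPM in control, at 198, 105, 114 and 144 CPM in FO, and at 64.7, 42.1, 9.67 and 30.4 CPM in GF. FO lay above both other groups, and GF and control overlapped. GF was 3.81-fold below FO (-1.93 ± 0.44, adjusted p = 0.00674). FO was 3.17-fold above control (1.66 ± 0.55, adjusted p = 0.0486), a call that ended when any single FO or control library was left out (adjusted p from 0.0637 to 0.337), with total counts alone (0.0631) and with no filter (0.0612). GF and control did not differ beyond the threshold (-0.26 ± 0.51, adjusted p = 0.739, 95% interval -1.35 to 0.83).

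Prolargin, a protein of cartilage and basement membranes whose basic end binds heparan sulfate, was above control in FO. PRELP stood at 27.7 and 39.6 CPM in control, at 93.4, 119, 107 and 87.1 CPM in FO, and at 115.5, 69.1, 44.9 and 37.0 CPM in GF. The FO libraries lay close together, whereas the GF libraries spread 3.12-fold and reached from the control range to the FO range. FO was 3.02-fold above control (1.59 ± 0.42, adjusted p = 0.0171), and this ended without control 1 (0.202) or control 2 (0.0975). GF differed beyond the threshold neither from FO (-0.61 ± 0.32, adjusted p = 0.175, 95% interval -1.31 to 0.10) nor from control (0.99 ± 0.41, adjusted p = 0.0876, 95% interval 0.12 to 1.86). Without GF 1 the difference from FO passed (-1.01, adjusted p = 0.0155), and without GF 4, or without both GF 3 and GF 4, that from control did (1.19 and 1.44, adjusted p = 0.0284 and 4.73e-04).

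Osteoglycin, which takes part in collagen fibril assembly and was first isolated from bone, followed decorin. OGN stood at 165.5 and 167 CPM in control, at 298, 185, 179 and 231 CPM in FO, and at 90.0, 73.3, 36.6 and 59.1 CPM in GF. The 3 groups did not overlap, and FO was the highest. GF was 3.44-fold below FO (-1.78 ± 0.29, adjusted p = 0.00121) and 2.56-fold below control (-1.35 ± 0.32, adjusted p = 0.00763). The difference from control ended without control 1 (0.0592) or control 2 (0.0688). FO exceeded control by 0.43 ± 0.33, which did not pass (adjusted p = 0.417, 95% interval -0.29 to 1.14).

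Dermatopontin was low in both kinds of graft. DPT stood at 61.2 and 71.6 CPM in control, at 3.34, 6.53, 8.60 and 4.45 CPM in FO, and at 8.57, 4.69, 5.87 and 4.15 CPM in GF. No graft library came near the control libraries, and the graft groups overlapped throughout. FO was 11.5-fold below control (-3.52 ± 0.41, adjusted p = 8.64e-05) and GF 11.3-fold below it (-3.5 ± 0.41, adjusted p = 9.97e-05). These comparisons share the control libraries, and both calls were made under each of their 18 alternatives. Between GF and FO the difference was 0.023 ± 0.49 (adjusted p = 0.975), with a 95% interval of -1.05 to 1.10, so that a log2 difference of that size in either direction is within it.

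**Figure D2:**
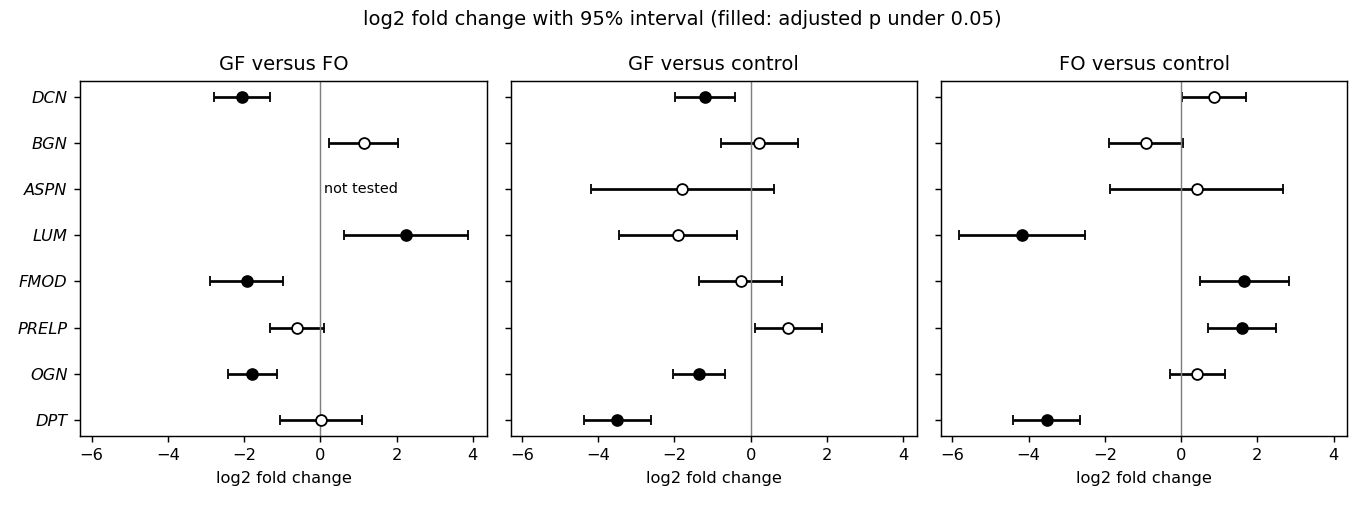
log2 fold change (horizontal axis) of each gene in GF versus FO, GF versus control and FO versus control, with 95% intervals; filled points have an adjusted p under 0.05. DPT lies near 0 in GF versus FO (0.023) and near -3.5 in both comparisons with control, whereas FMOD lies at -1.93, -0.26 and 1.66.

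The comparisons of GF and of FO with control testis share the control libraries, and their counts stand side by side. Of the 8 genes, all tested with the 10 libraries in 1 fit, 3 were lower and none higher in GF than in control, where 25.8% of all tested genes were called and 11.8% were lower. Their median log2 fold change was -1.28, against 0.03 over all tested genes, and groups did not overlap for 5 of 8, against 47.2% of all. Between FO and control 4 were called, 2 higher and 2 lower, where 18.7% of all tested genes were called (8.12% higher, 10.6% lower). There the median was 0.42, against -0.04 over all, and groups did not overlap for 7 of 8, against 58.7%. Leaving out control 1 or control 2 left 1 call in GF and 2 in FO. The shares of non-overlap with control rest on 2 libraries.

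Summed over the 8 genes, the level was 1344 and 1357 CPM in control, 1427 to 2658 CPM in FO and 569 to 986 CPM in GF. The make-up of that sum also differed between groups. DCN made up 53.7% to 56.3% of the summed counts in control, 62.3% to 74.4% in FO and 24.8% to 51.4% in GF. BGN held 13.8% to 14.3% in control, 3.11% to 7.85% in FO and 15.2% to 54.9% in GF, and in GF 4 it was the most abundant of the 8. LUM held 7.34% to 8.27% in control, at most 1.09% in FO and 1.58% to 5.07% in GF. OGN, in contrast, held 12.3% in each control library, a like 11.2% to 12.6% in FO and 6.43% to 10.7% in GF.

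**Figure D3:**
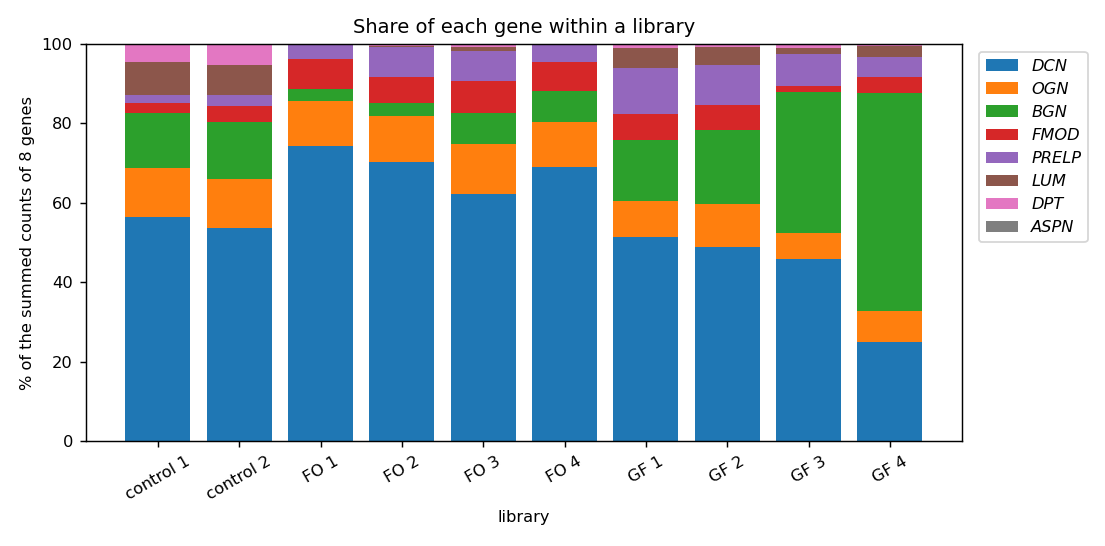
Share (vertical axis, % of the summed counts of the 8 genes) of each gene in each of the 10 libraries. DCN takes 62.3% to 74.4% in FO and 24.8% to 51.4% in GF, and BGN reaches 54.9% in GF 4.

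Ratios between 2 members within a library do not depend on the scaling, and 5 were compared between GF and FO, for neighbouring genes (DCN/LUM, ASPN/OGN, FMOD/PRELP) and for close relatives (DCN/BGN, LUM/FMOD). They share genes, so they are not independent of each other. Neighbouring genes did not keep a common ratio at 2 of the 3 loci. With 0.5 added to each count, DCN exceeded LUM 676-fold, 261-fold, 56.9-fold and 1892-fold in FO 1 to FO 4. In GF 1 to GF 4 it did so 10.1-fold, 10.6-fold, 28.6-fold and 9-fold, beside 6.81-fold and 7.32-fold in control. The FO 4 value rests on 3 LUM counts and is imprecise. The log2 ratio averaged 3.69 ± 0.77 over the GF libraries and 8.54 ± 2.15 over the FO libraries (SD, n = 4 each). By an exact permutation test, two-sided, p was 0.0286, and 0.0357 when adjusted over the 5 ratios. The GF mean lay nearer to the control values than to the FO mean, and the graft groups did not overlap, though GF 3 (4.84) was nearer to FO 3 (5.83) than to either control library.

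For FMOD/PRELP the log2 ratio was -1.01 ± 0.83 in GF beside 0.43 ± 0.58 in FO (exact permutation p = 0.0286, adjusted 0.0357). The groups came close, since GF 4 stood at -0.28 and FO 2 at -0.18, and control stood at 0.30 and 0.46. For ASPN/OGN, which rests on few ASPN counts, the log2 ratio was -7.48 ± 0.74 in GF and -7.08 ± 0.84 in FO, and it did not differ beyond the spread (exact permutation p = 0.514, adjusted 0.514). Among the relatives, DCN/BGN had a log2 ratio of 0.59 ± 1.29 in GF and 3.79 ± 0.84 in FO (exact permutation p = 0.0286, adjusted 0.0357), beside 2.02 and 1.91 in control. LUM/FMOD was the steadiest ratio among the GF libraries (-0.57 to -0.10) and ranged from -7.61 to -2.87 in FO (exact permutation p = 0.0286, adjusted 0.0357), beside 1.70 and 0.87 in control. Its FO values rest on the same low LUM counts. The p of 0.0286 is the smallest that 4 libraries against 4 can give.

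**Figure D4:**
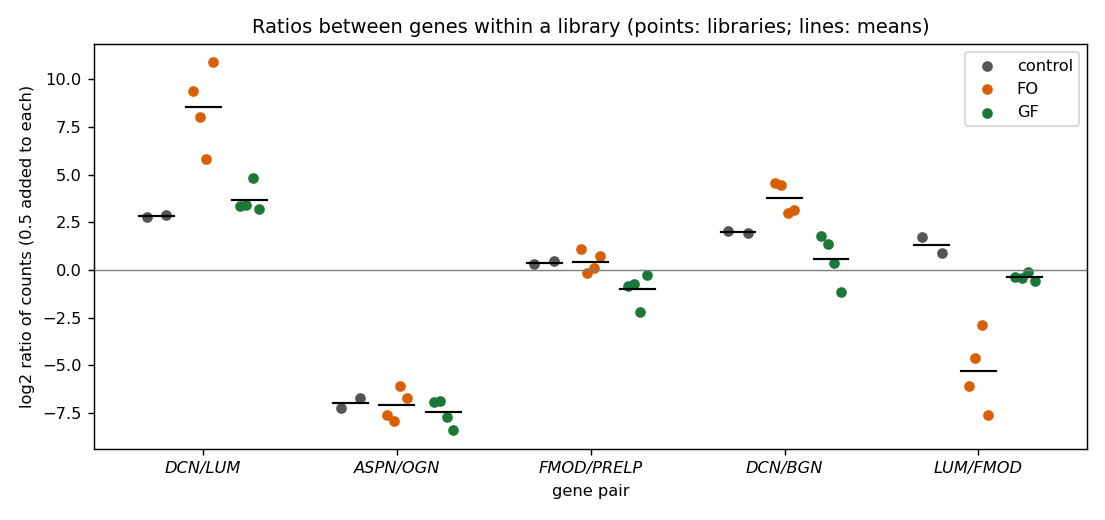
log2 ratio of the counts of 2 genes within a library (vertical axis, 0.5 added to each count) for 5 gene pairs; points are libraries and lines the group means. For DCN/LUM the GF libraries lie between 3.17 and 4.84 and the FO libraries between 5.83 and 10.89.

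Fibroblast markers were lower in GF than in FO, as were DCN, FMOD and OGN, whereas LUM was higher, a call that held under 9 of 16 alternatives. The 10 fibroblast markers summed to 2579 and 2701 CPM in control, 2409 to 3315 CPM in FO and 717 to 1307 CPM in GF, and none was at 0 in any group. Of the 10, 5 were lower in GF than in FO (VIM, NR2F2, S100A4, PDGFRA and CD34) and none was higher, and 6 were lower in GF than in control (VIM, CD34, FAP, PDGFRA, PDGFRB and THY1). Between FO and control, where LUM and DPT were lower in FO, 2 of the markers were higher in FO (NR2F2 and S100A4), 2 lower (FAP and PDGFRB) and 6 did not pass. VIM alone held 58.4% of the list's counts in FO and 67.9% in GF, and it is also made by Sertoli cells. NR2F2 came next, with 14720 counts in FO, 2884 in GF and 3605 in control, beside 28605, 10557 and 24208 for VIM. Values per count of the list therefore rest largely on VIM and NR2F2. Per 1000 counts of the list, DCN had 336 ± 80.4 counts in GF, 469 ± 95.8 in FO and 281 ± 1.81 in control. OGN had 68.0 ± 13.0 in GF, 78.8 ± 7.75 in FO and 63.0 ± 2.37 in control, so that its group means differed by far less on this scale than in CPM. FMOD had 36.5 ± 16.5 in GF, 49.4 ± 7.71 in FO and 16.9 ± 6.02 in control. For PRELP the order of the graft means turned, with 68.1 ± 19.6 in GF and 37.2 ± 9.74 in FO, beside 12.8 ± 3.60 in control. BGN had 255 ± 166 in GF, 36.3 ± 16.5 in FO and 72.1 ± 4.56 in control, LUM 27.5 ± 11.8, 2.28 ± 2.83 and 39.9 ± 1.79, and DPT 6.23 ± 1.49, 2.16 ± 1.14 and 25.2 ± 3.63. This scale was chosen after the values were seen, and the part of fibroblast number in the differences was not tested.

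Markers of other cell types were also detected, in lists of different length whose sums are not comparable. Cartilage markers (12 genes) summed to 766 to 909 CPM in control, 110 to 269 CPM in FO and 166 to 712 CPM in GF, mostly from COL9A2, with COL10A1 at 0 in all groups and COMP at 0 in control and FO (427 counts in GF). COL9A2 and COMP were higher in GF than in FO, and HAPLN1 was lower, of 4 tested. In GF, COL9A2 stood at 385 ± 226 CPM and COMP at 34.0 ± 49.5 CPM. The cartilage sum was 259 and 166 CPM in GF 1 and GF 2, beside 712 and 583 CPM in GF 3 and GF 4. Smooth muscle and peritubular markers (6 genes) summed to 355 to 411 CPM in control, 210.1 to 346 CPM in FO and 584 to 837 CPM in GF, highest in GF 4, which also had the highest BGN. Of these 6, 4 were higher in GF than in FO (ACTA2, CNN1, MYH11 and TAGLN) and none was lower. Tendon markers (3 genes) stayed at or under 23.8 CPM and adipocyte markers (6 genes) at or under 96.3 CPM in all libraries. The tendon markers went different ways between GF and FO. SCX was higher in GF (2.13, adjusted p = 0.00471). TNMD had 8 counts in GF and 61 in FO, and MKX 0 and 16, both too low to be tested. Of 3 adipocyte markers tested, LEP was higher in GF (269 counts, 0 in FO). FABP4 (-1.42, adjusted p = 0.234) and LIPE (0.64, adjusted p = 0.566) did not pass. Sertoli cell markers (7 genes) summed to 4798 to 8716 CPM in FO, although the label names fibroblasts only. The sums were 4836 to 5402 CPM in control. In GF they were 14820 and 16765 CPM in GF 1 and GF 2, beside 40348 and 45562 CPM in GF 3 and GF 4. Most of each sum came from CLU, at 3840 ± 328 CPM in control, 5734 ± 1685 CPM in FO and 28115 ± 15637 CPM in GF. Between FO and control, WT1 was higher in FO, AMH and INHA were lower and 4 did not pass. AMH stood at 12.9 CPM in FO beside 484 CPM in control, and INHA at 75.6 beside 260 CPM. Germ cell markers summed to 42.2 to 44.1 CPM in control, 1.48 to 5.02 CPM in FO and 314 to 1935 CPM in GF. The sum of 6 Leydig cell markers lay below the control libraries in both grafts, at 471 to 3664 CPM for FO and 1637 to 3173 CPM for GF. INSL3 had the highest mean of the 6 in every group, with 9491 CPM in control. Against control, 5 of the 6 were lower in FO and 4 in GF. HSD3B1 passed in neither. HSD17B3 did not pass between GF and control (0.88, adjusted p = 0.209) and was higher in GF than in FO (2.43, adjusted p = 0.00196). Macrophage markers stood at 401 to 436 CPM in control, 55.9 to 188 CPM in FO and 15.2 to 32.6 CPM in GF, and endothelial markers at 228 to 233 CPM, 95.4 to 172 CPM and 29.4 to 55.9 CPM. The endothelial markers did not move together. EMCN was higher in FO than in control (67.1 against 13.5 CPM, 2.31, adjusted p = 0.0124), PECAM1 and VWF were lower and 3 did not pass. The part of these cell types in the results was not tested.

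The lists that follow are to be read beside the shares over all tested genes. Between GF and FO 30.5% were called (17.6% higher, 13.0% lower), with a median log2 fold change of -0.02. Against control, 25.8% were called in GF (14.0% higher, 11.8% lower) and 18.7% in FO (8.12% higher, 10.6% lower). Other proteins with the same repeats were described from a list of 11 genes. Of 5 tested between GF and FO, 1 fell and 4 did not pass, with a median log2 fold change of -0.35. ECM2, the neighbour of ASPN, stood at 23.7 ± 4.86 CPM in GF, beside 50.4 ± 18.1 CPM in FO (-1.08 ± 0.30, adjusted p = 0.0183, and 0.0798 without FO 1). OMD (osteomodulin), between OGN and ASPN, stood at 29.5 ± 9.21, 37.7 ± 11.5 and 38.9 ± 6.52 CPM in GF, FO and control and did not pass between GF and FO (-0.35 ± 0.31, adjusted p = 0.422). TSKU (tsukushi), a secreted inhibitor of several signalling pathways, was 7.48-fold lower in GF (-2.9, adjusted p = 3.23e-05) and 10.6-fold lower in FO (-3.41, adjusted p = 9.89e-06) than in control. EPYC and KERA, the neighbours of LUM, had 13 counts and 1 count in control and 0 in all grafts.

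Fibrillar collagens are what these proteins bind. COL1A1, COL1A2, COL3A1, COL5A2 and COL11A1 were lower in GF than in FO, and COL5A1 and COL5A3 did not pass. The list described here also holds fibril partners (COL6A2, COL6A3, COL12A1, COL14A1, FN1 and TNXB). Of its 13 tested genes 7 fell, 1 rose and 5 did not pass (median -1.01). COL1A2, a chain of type I collagen, fell by 1.55 on the log2 scale (adjusted p = 8.31e-04), COL14A1, a collagen on the fibril surface, by 1.56 (0.00175) and COL5A2 by 1.31 (0.00191). The gene that rose was COL6A2, at 690 ± 555 CPM in GF beside 126 ± 35.9 in FO (2.46 ± 0.55, adjusted p = 0.00577). Against control, COL3A1 was 7.06-fold lower in GF (adjusted p = 3.25e-04), COL14A1 was 9.35-fold higher in FO (adjusted p = 8.64e-05) and also higher in GF (1.67, adjusted p = 0.00394), and TNXB, tenascin X, was 7.87-fold higher in GF (adjusted p = 0.00164) and 7.02-fold higher in FO (adjusted p = 0.0027, and 0.0522 without control 2). In FO 4 of 14 tested genes were higher than in control and none lower, and in GF 3 were higher and 3 lower.

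The enzymes that build chondroitin and dermatan sulfate chains had 2 higher, 2 lower and 20 not passing among 24 tested (median -0.15). UST, which sulfates uronic acids of the chain, stood at 6.70 ± 3.79 CPM in GF, beside 36.2 ± 9.13 CPM in FO (-2.4 ± 0.40, adjusted p = 0.0013), and FO was also above control (1.81, adjusted p = 0.0181, ended without FO 1 or either control library at up to 0.164). DSE, the epimerase that turns chondroitin into dermatan sulfate, was 3.17-fold lower in GF than in FO (adjusted p = 0.0228, and up to 0.0879 without FO 1, FO 4 or GF 3). B3GAT3, which completes the linker between core protein and chain, rose 2.29-fold (adjusted p = 0.0167, and 0.0545 without FO 2), and CHPF, of the chain polymerase, rose by 1.21 on the log2 scale (adjusted p = 0.0302). The sulfotransferase CHST7 was below control in GF (-4.81, adjusted p = 0.00138) and in FO (-3.05, adjusted p = 0.0144, and up to 0.115 without FO 1 or either control library), as was CHST15 in GF (-3.22, adjusted p = 0.00571, and 0.069 without control 2) and in FO (-2.55, adjusted p = 0.0205). For keratan sulfate, of 7 tested genes only B4GALT4 changed between GF and FO (-1.41, adjusted p = 0.0335, and up to 0.14 without FO 1, FO 2 or GF 2; list median -0.64). Against control, B4GALT1 was lower in GF (-1.27, adjusted p = 0.00353, and 0.0709 without control 2), B3GNT2 higher in GF (1.66, adjusted p = 0.00763, and up to 0.129 without a control library) and B3GNT7 higher in GF (2.20, adjusted p = 0.0261) and in FO (2.42, adjusted p = 0.0215, and up to 0.222 without FO 4 or a control library).

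Among ligands and receptors that these proteins bind, of 19 tested genes 6 fell, 1 rose and 12 did not pass between GF and FO (median -0.91). EGFR, the receptor to which decorin can bind, stood at 30.1 ± 4.01 CPM in GF, beside 78.8 ± 7.55 CPM in FO (-1.39 ± 0.22, adjusted p = 0.00108). BMP4 fell by 2.18 (adjusted p = 0.00115) and TGFB2, which encodes a TGF-beta, by 0.99 (adjusted p = 0.0083) on the log2 scale, and the gene that rose was WISP1 (CCN4), at 38.9 CPM against 15.4 CPM (1.33, adjusted p = 0.0317). TGFB2 was nevertheless above control in both grafts, 4.94-fold in GF (adjusted p = 2.17e-04) and 9.80-fold in FO (adjusted p = 2.80e-05). ERBB4, a receptor of the EGFR family, was likewise 11.2-fold above control in GF (adjusted p = 4.07e-05) and 16.6-fold in FO (adjusted p = 1.71e-05).

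Proteases that cut the family's core proteins, with their inhibitors, had 6 lower, none higher and 8 not passing of 14 tested (median -0.91). ADAMTS1 stood at 15.1 ± 9.80 CPM in GF, beside 113 ± 43.1 CPM in FO (-2.88 ± 0.50, adjusted p = 0.00159), MMP2, a gelatinase, fell by 1.88 (adjusted p = 0.0013), and the inhibitor TIMP1 fell by 1.73 (adjusted p = 8.46e-04). Against control, ADAMTS5 was 5.09-fold lower in GF (adjusted p = 0.0044), and BMP1, which removes the propeptides of biglycan and collagen, was 2.47-fold lower there (adjusted p = 0.0199, and up to 0.198 without a control library) and also lower in FO (-1.14, adjusted p = 0.0454). In FO, TIMP3 was 3.91-fold and ADAMTS1 5.33-fold above control (adjusted p = 0.00426 and 0.0144), and both calls ended without either control library (up to 0.0781 and 0.159).

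Of 20 other proteoglycans and link proteins tested, 8 fell, 2 rose and 10 did not pass between GF and FO (median -0.63). VCAN, the large proteoglycan versican, fell by 2.23 (adjusted p = 0.0045) and HAPLN1, which links such proteoglycans to hyaluronan, by 2.55 (adjusted p = 0.00222). GPC2, a glypican on the cell surface, rose 7.48-fold (adjusted p = 0.0021), and SDC1, syndecan 1, rose by 1.77 on the log2 scale (adjusted p = 0.0257). Against control, SRGN, the proteoglycan of blood cell granules, fell by 4.69 in GF (adjusted p = 5.00e-04, and -5.46 without GF 1), SDC4 was 10.4-fold higher in GF (adjusted p = 0.00168), GPC3 35.4-fold higher in FO (adjusted p = 5.35e-04) and HSPG2, perlecan of basement membranes, 6.27-fold lower in FO (adjusted p = 5.51e-04). Each was called in the same direction in the other graft group too: SRGN (-2.03, adjusted p = 0.0371) and SDC4 (2.53, adjusted p = 0.00969) in FO, and GPC3 (3.28, adjusted p = 0.00526) and HSPG2 (-1.87, adjusted p = 0.00434) in GF.

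**Figure D5:**
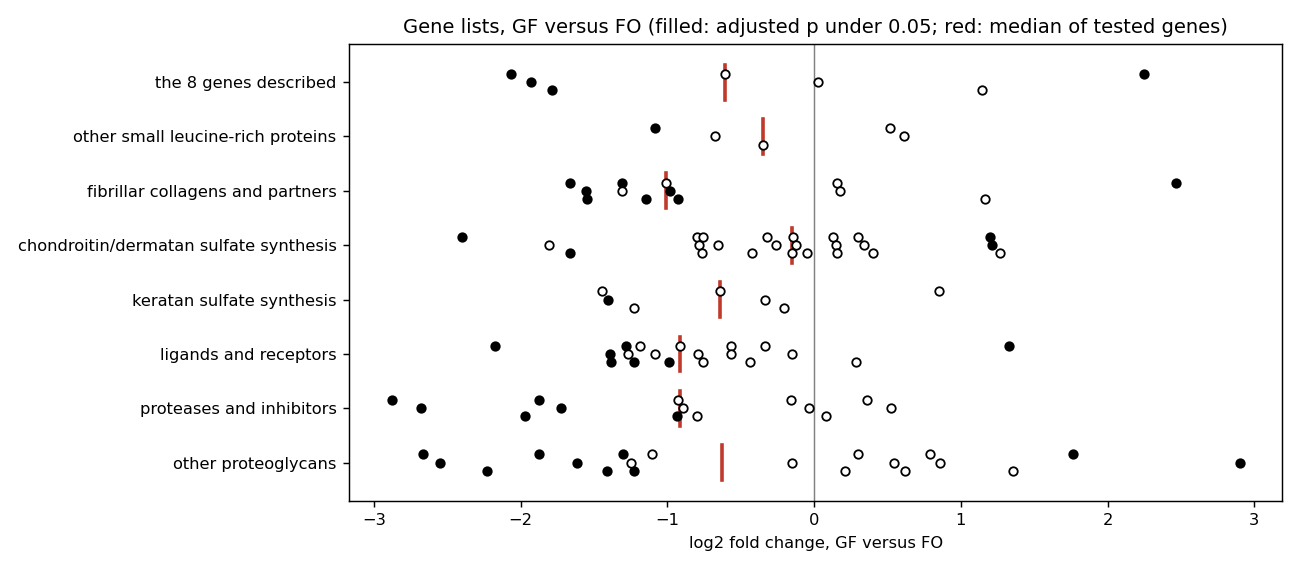
log2 fold change, GF versus FO (horizontal axis), of the tested genes of each list; filled points have an adjusted p under 0.05 and red lines are list medians. The list of fibrillar collagens and partners has its median at -1.01 and its highest point, COL6A2, at 2.46.

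The genes whose pattern over the 10 libraries lay nearest to each member were found by the root mean square (RMS) distance between log2 CPM values centred per gene, over 7387 genes, as a description only. Nearest to DCN were FRMD6 (0.23), ANGPTL2 (0.28) and PLXDC2 (0.29), and among the members OGN (0.33), where DCN itself varied by 1.04 about its mean. Nearest to OGN were TMEM98 (0.14), TRIM8 (0.17) and C1S (0.19). FMOD lay nearest to ITGA6 (0.26), S100A10 (0.30) and FOLR2 (0.32), and PRELP to JAM3 (0.20), TIMP3 (0.24) and EFCAB14 (0.26).

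For BGN the nearest genes were MRVI1 (0.21), DUSP28 (0.28) and VWA1 (0.28), and no other member lay within 1.39. LUM had no close match, with CENPF at 0.87, SERPINE2 at 0.90 and SORD at 0.93, against its own variation of 2.08. DPT lay nearest to KIT, PRKAR2B (0.34 each) and HSD17B4 (0.35), all of them lower in the mean of either graft group than in control. For ASPN, at 0 to 12 counts a library, the nearest were LRRC42 (0.35), PDGFRA (0.35) and SACM1L (0.37), on values that its low counts leave imprecise.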

How the data were processed

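Polyadenylated pig RNA was measured in 10 QuantSeq 3′ libraries, per the labels' protocols. The authors deposited whole-number raw counts per gene name, and the submitters' processing notes name Sscrofa11.1 and DESeq2 1.42.0 without a role. For aligner, counting program and strand nothing is given in the sources used, which leaves counts of overlapping or antisense genes uncertain. Columns named F were taken as FO by their number.

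Genes were filtered with filterByExpr (minimum count 10), scaled with TMM and tested with edgeR 4.0.16 (R 4.3.3; quasi-likelihood F test, robust), and called at a Benjamini-Hochberg adjusted p under 0.05 over all tested genes. The fit for GF versus FO held the 8 grafts, that for control comparisons all 10 libraries. SE is the log2 fold change over the root of F. Ratios were tested with exact two-sided permutation over libraries (SciPy 1.17.1). Floors are 3 counts.

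The members and lists were chosen with earlier results of these data known. Named genes are the members, the 3 called genes of lowest p in each list (2 for control comparisons) and the 3 nearest by pattern. CHPF, COL6A2, WISP1, SDC1, OMD, EPYC, KERA, CHAD, NYX and PODN were named after their values were seen. CCN2 and CCN4 were matched as CTGF and WISP1. Alternatives were other scalings, filters, libraries and tools, and a replicate block. No pair of replicates agreed within sampling noise. Chi-squared over degrees of freedom was 11.0 for GF 1 with GF 2 and 21.2 for GF 3 with GF 4. It was 46.4 to 53.6 for GF 1 or GF 2 with GF 3 or GF 4, beside 9.28 to 17.4 within FO.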

Additional observations from a re-analysis of the deposited data

Results flagged for a closer look

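A single value stood apart from its group. The log2 ratio DCN/LUM in GF 3 was 4.84, against 3.17 to 3.41 in the other GF libraries, a gap of 0.859 of the group's range, past the 95% critical value of Dixon's test for 4 libraries. GF 3 had the lowest total count and 26 LUM counts. Chance flags about 1 in 20 groups, and 26 groups of 4 libraries were examined.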

How the results depend on the processing

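Between GF and FO, the calls of DCN, FMOD and OGN were made under each of 16 alternatives. The number of genes called was 4205 and ranged from 2902 to 4842 with single libraries left out (members 3 to 5 of 8), and it was 2312 without FO 1 and GF 3. For GF versus control it was 2201 with its own 6 libraries in the fit, 1395 without control 1 and 1141 without control 2, with 1141 to 4729 over single libraries left out (members 1 to 4) and 5677 without GF 3 and GF 4. For FO versus control it was 6600 with its own 6 libraries, 6510 without GF 3 and GF 4, 977 without control 1 and 796 without control 2, with 796 to 3987 over single libraries left out (members 2 to 4, and 6 with the replicate block). A fit without 1 control library assumes that the other varies like the grafts.

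The log2 ratios (GF minus FO) kept their sign with single libraries left out: DCN/LUM -5.75 to -4.06, ASPN/OGN -0.68 to -0.072, FMOD/PRELP -1.68 to -1.04, DCN/BGN -3.59 to -2.62 and LUM/FMOD 4.16 to 5.74. With 4 libraries against 3 the exact test cannot go below 0.0571, so none could pass. Without FO 1 and GF 3 (smallest exact p 0.1) DCN/LUM was -4.94, FMOD/PRELP -0.83, DCN/BGN -2.86 and LUM/FMOD 4.58. Without GF 3 and GF 4 (smallest exact p 0.133) they were -5.16, -1.21, -2.22 and 4.90, and ASPN/OGN turned to 0.20.

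Only differences that had not passed changed sign among the fold changes of members. DPT in GF versus FO was -0.15 without FO 1, -0.067 without FO 4, -0.23 without GF 1 and -0.17 without FO 1 and GF 3. In GF versus control, BGN was -0.24 without GF 4 and -0.46 without GF 3 and GF 4, and FMOD was 0.097 without control 2, 0.032 without GF 3, 0.033 without FO 1 and GF 3 and 0.25 without GF 3 and GF 4. With single libraries left out these ranged from -0.23 to 0.30 (DPT), -0.24 to 0.39 (BGN) and -0.69 to 0.097 (FMOD). The cause was not tested.

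Whether same-numbered FO and GF libraries are paired could not be decided from so few libraries. Their deviations from the group means correlated at 0.0549 to 0.218, and those of differently numbered libraries at -0.148 to 0.108. Of 8 graft libraries, 4 correlated best with their own number. The main fits used no pairing. With the replicate number as a block, 4335, 3282 and 3219 genes were called in GF versus FO, GF versus control and FO versus control. BGN then passed in GF versus FO (1.11, edgeR adjusted p = 0.00404) and in FO versus control (-1.56, 0.00151) and stood at -0.46 in GF versus control, PRELP passed in GF versus control (1.22, 0.0368) and DCN in FO versus control (1.11, 0.0312). Depth limits ASPN most, at 0 to 12 counts a library.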

Other observations

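CHAD and NYX, of the same repeat family, had low counts in all groups. CHAD (chondroadherin) had 17 counts in control, 6 in FO and 0 in GF, and NYX (nyctalopin) 7, 4 and 0, all too low to be tested. PODN (podocan), which was tested, stood at 27.8 ± 1.74 CPM in control, 8.60 ± 1.97 CPM in FO and 13.2 ± 14.6 CPM in GF and passed in no comparison.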
